A study of Mus musculus with 9 samples.

Results

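The genes followed here belong to serine synthesis, folate one-carbon metabolism, asparagine synthesis and the Atf4 stress response. They are Atf4, Ddit3, Trib3, Chac1, Asns, Phgdh, Psat1, Psph, Shmt2 and Mthfd2. They were taken by exact gene name from the deposited gene count table, and all 10 of the 10 names were found among its 23358 entries. RNA had been sequenced from 9 cultures of C57BL/6 mesenchymal stem cells, which are stromal cells grown from adult mouse marrow, used at passages 4 to 10. The cells were transfected or treated 1 day after plating, kept in osteogenic medium with ascorbic acid and beta-glycerophosphate, and lysed on day 4. The siBcat group received siRNA against beta-catenin, the product of Ctnnb1, an adhesion protein at cadherin junctions that is also the effector of canonical Wnt signalling. The GSK126 group received non-targeting siRNA and 5 µM GSK126, which blocks Ezh2, the enzyme that methylates histone H3 at lysine 27. The siCTL group received non-targeting siRNA alone. Each group had 3 biological replicates, per the series text. No source used here says whether these came from separate animals, so the p values set group differences against the spread between these cultures. For siBcat the treatment label lists 5 µM GSK126, while titles, source names and column names give that group no inhibitor; the groups follow the titles.

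Atf4 is a transcription factor made mainly when the initiation factor eIF2 is phosphorylated, since upstream reading frames in its transcript hold its translation back at other times. It then raises transcription of genes for amino acid synthesis, transport and tRNA charging, a programme known as the integrated stress response or amino acid response. Serine is made from a glycolytic intermediate by Phgdh, Psat1 and Psph, and mitochondrial Shmt2 and Mthfd2 pass its carbon to folate, while Asns makes asparagine from aspartate and glutamine. In osteoblasts, which derive from marrow stromal cells, Atf4 is known to be needed for amino acid import and collagen production. Protein was not measured here, so Atf4 transcript levels below do not report how much of the factor was made.

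The best-known site of Atf4 with a C/EBP partner has the letters TGATGNAA, and 3 of the 10 genes held it, on either strand, between 250 bases before and 50 after their RefSeq start (build GRCm38.p6, all 10 genes matched). Of 27025 genes with such a window, 4.51% held it. The sequences of the 3 are shown because they hold the match, which capitals mark. They are also the members with the highest fold changes in siBcat described below. Members without the match, such as Mthfd2, rose too, and a link between match and change was not tested. For Asns and Chac1 the 250 bases before the start are given, 5′ to 3′ on the gene's strand (chr6:7693210-7693459, minus strand, and chr2:119350992-119351241, plus strand), and for Trib3 a window of 30 bases that lies just after its RefSeq start (chr2:152344028-152344057, minus strand).
Asns: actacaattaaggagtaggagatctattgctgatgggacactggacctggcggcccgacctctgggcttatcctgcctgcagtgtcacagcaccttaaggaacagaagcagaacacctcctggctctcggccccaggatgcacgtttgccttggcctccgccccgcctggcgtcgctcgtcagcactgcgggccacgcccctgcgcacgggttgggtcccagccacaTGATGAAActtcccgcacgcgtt
Chac1: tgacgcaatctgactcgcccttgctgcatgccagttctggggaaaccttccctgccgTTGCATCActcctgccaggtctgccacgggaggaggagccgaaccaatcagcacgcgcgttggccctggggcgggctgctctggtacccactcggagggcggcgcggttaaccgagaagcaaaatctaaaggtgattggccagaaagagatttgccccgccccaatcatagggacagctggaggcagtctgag
Trib3: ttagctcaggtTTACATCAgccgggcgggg
In Asns the match lay 23 to 16 bases before the start, in Chac1 193 to 186 bases before it on the opposite strand, and in Trib3 15 to 22 bases after it, also on the opposite strand. These sides hold for the RefSeq starts: by the GENCODE M21 gene ends given below, the Asns match lies inside the gene and the Trib3 match before its start. The letters TGACGTCA, the cyclic AMP response element, were in none of the 10 genes and in 2.03% of all genes. The 10 genes had 11 windows, since Psat1 has a further RefSeq start. The ER stress element, CCAAT and CCACG with 9 bases between them, was in none of the 10 and in 0.14% of all. A match is only a match of letters, and its absence says nothing of binding elsewhere.

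Summed counts were 42324200 to 50327938 in siBcat, 43062026 to 55898774 in GSK126 and 44506814 to 46516898 in siCTL. Levels below are CPM, the counts scaled to a common library total, after TMM scaling, and changes are log2 fold changes from edgeR's quasi-likelihood test, called at a Benjamini-Hochberg adjusted p under 0.05 over 13240 genes. All 10 genes passed the filter on low counts. Ctnnb1 was at 19.3, 19.3 and 19.1 CPM in the siBcat libraries, with 925.4, 949.7 and 905.9 CPM in the GSK126 libraries and 854.4, 860.1 and 878.9 CPM in siCTL. Ezh2 averaged 27.5 CPM in siBcat, 27.9 CPM in GSK126 and 23.7 CPM in siCTL, which is no check of an enzyme inhibitor. Stromal markers fixed as a list of 12 summed to 23200 to 25300 CPM in siBcat, 33600 to 36500 CPM in GSK126 and 26200 to 31000 CPM in siCTL, with Thy1 at 0 counts in all 9 libraries. Of the other cell types, 9 haematopoietic markers summed to 12.1 to 12.7, 9.4 to 11.8 and 11.7 to 14.3 CPM in siBcat, GSK126 and siCTL, with Ptprc and Emr1 (an older symbol of Adgre1) at 0. The 6 endothelial markers summed to at most 2.26 CPM in any library, and the 6 skeletal muscle markers to 39.5 to 49.5 CPM with Myog and Myf5 at 0. Nearly all of the muscle sum was Des, which averaged 46.7, 43.2 and 46.1 CPM in siBcat, GSK126 and siCTL. Most of the haematopoietic sum was Cd14, at 8.93, 7.53 and 9.88 CPM in the same order. The stromal sum is carried by Col1a1, Col1a2 and Cxcl12, and single markers went either way. Of 11 tested, 1 (Ly6a, by 0.78) rose and 5 fell in siBcat, with 2 higher without GSK126 replicate 2 or GSK126 replicate 3. In GSK126, 3 rose and 2 (Pdgfra by 0.59 and Pdgfrb by 0.36) fell. Over all genes tested against siCTL, 17.7% were called higher and 17.5% lower in siBcat, and 14.3% and 10.7% in GSK126. The change of Cxcl12 was -0.65 in siBcat and 1.09 in GSK126, and that of Vcam1 was -0.79 and 0.47. The part of the stromal marker shift in the results below was not tested. GSK126 replicate 3 stood apart: a trend on coding length took up 21.4% of the variance of its deviations from the group mean, against 7.09% and 9.08% in the other GSK126 libraries and 0.039% to 0.563% in siBcat and siCTL.

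With beta-catenin depleted, 8 of the 10 genes rose: Chac1, Asns, Trib3, Mthfd2, Phgdh, Shmt2, Psph and Psat1. Atf4 and Ddit3 did not pass the test, and none of the 10 fell (0 also at an unadjusted p under 0.05, with DESeq2 and with limma-voom). Of all genes tested in this comparison, 17.7% were called higher and 35.2% in either direction. The median log2 fold change was 0.546 over the 10 genes and 0.002 over all genes tested. In all 10 genes, each siBcat library was above each siCTL library, as in 28% of all genes tested. With GSK126, 5 of the 10 rose, namely Chac1, Asns, Phgdh, Mthfd2 and Shmt2, and again none fell (0 also at an unadjusted p under 0.05, with DESeq2 and with limma-voom). There 14.3% of all genes were called higher and 25% in either direction, and the median was 0.185 over the 10 genes against 0.006 over all genes. In 6 of the 10 every GSK126 library was above every siCTL library, as in 21.9% of all genes tested. Without GSK126 replicate 3 the 5 GSK126 calls were kept, Shmt2 with the largest adjusted p of them (0.00383), and Psat1 was called as well. Both treatments were set against the same siCTL libraries. In bulk RNA, more cells of a type and more RNA per cell cannot be told apart.

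**Figure D1:**
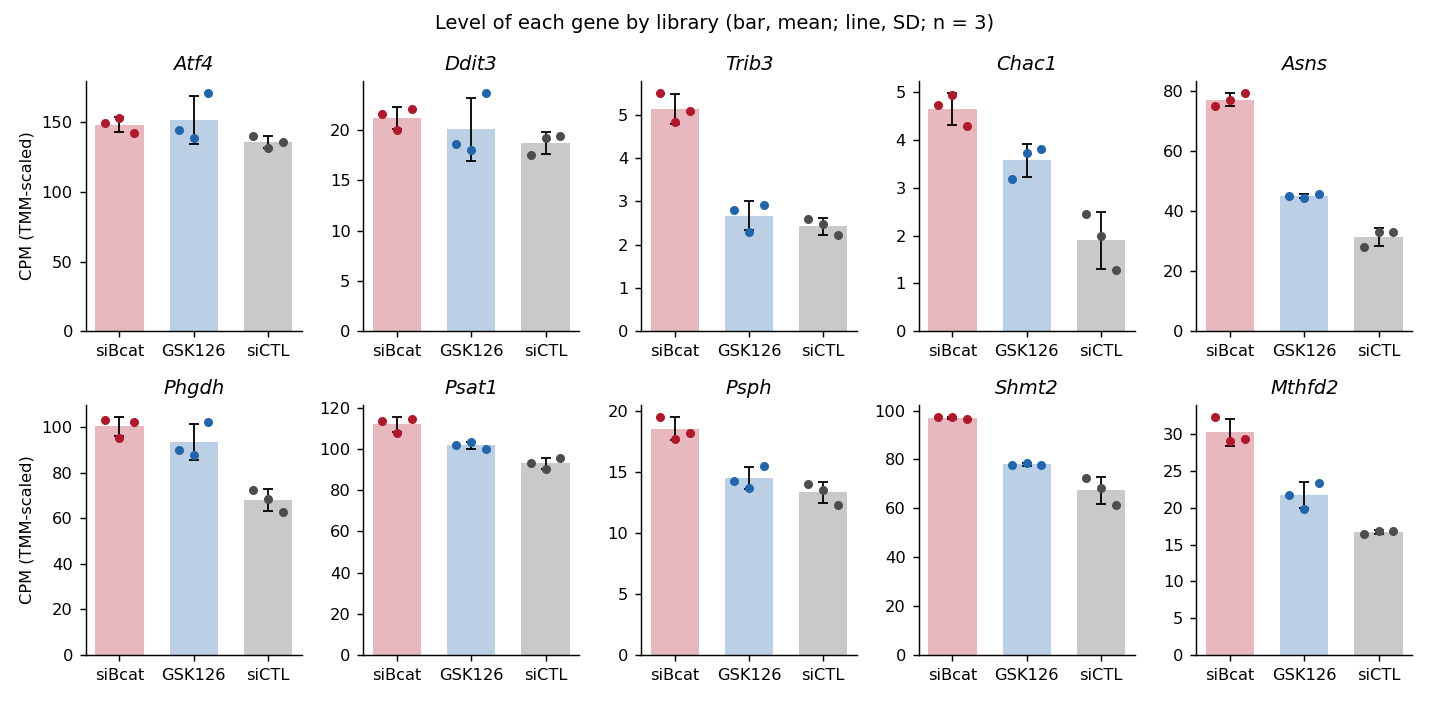
Level of each of the 10 genes in CPM after TMM scaling (vertical axis from 0) in the siBcat, GSK126 and siCTL groups; points are libraries, bars the mean and lines the SD over 3 libraries. Asns separates all 3 groups, at 75.1 to 79.3 CPM in siBcat, 44.2 to 45.8 CPM in GSK126 and 28.1 to 33.1 CPM in siCTL, while the Atf4 values of siBcat and GSK126 overlap.

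Asns, asparagine synthetase (chromosome 6, 7675169 to 7693254, minus strand, positions here and below from GENCODE M21 on GRCm38), had the smallest adjusted p of the 10 in siBcat. It stood at 75.1, 76.8 and 79.3 CPM in siBcat, against 44.9, 44.2 and 45.8 CPM in GSK126 and 28.1, 33.1 and 33.0 CPM in siCTL. No library of one group reached the range of another, and siCTL replicate 1 was the lowest of the 9. Relative to siCTL, Asns was 2.45-fold higher with siBcat (a log2 fold change of 1.29 with SE 0.07, adjusted p = 2.96e-08). It was 1.43-fold higher with GSK126 (0.52, SE 0.07, adjusted p = 0.000137). Both calls held in each of the 21 alternatives, with a log2 fold change of 1.22 to 1.33 in siBcat and 0.44 to 0.55 in GSK126.

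Phgdh, the dehydrogenase that opens serine synthesis (chromosome 3, 98313170 to 98339990, minus strand), rose in both treatments. It stood at 103.3, 95.5 and 102.5 CPM in siBcat, against 90.1, 87.9 and 102.4 CPM in GSK126 and 72.4, 68.6 and 62.7 CPM in siCTL. Every treated library was above every siCTL library, and the GSK126 replicate 3 value lay within the siBcat range. The change was 0.56 (SE 0.07, adjusted p = 5.52e-05) in siBcat and 0.46 (SE 0.07, adjusted p = 0.00049) in GSK126.

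Psat1, the aminotransferase of the next step (chromosome 19, 15904678 to 15947337, minus strand), changed least of the 8 genes that rose in siBcat. Its levels were 113.5, 107.7 and 114.8 CPM in siBcat, 102.1, 103.4 and 99.9 CPM in GSK126, and 93.3, 90.4 and 95.7 CPM in siCTL. The 3 groups did not overlap, yet lay close together. The change was 0.27 (SE 0.05, adjusted p = 0.00111) in siBcat and 0.13 (SE 0.05, adjusted p = 0.0750) in GSK126. The GSK126 value passed the threshold without GSK126 replicate 3 (0.14, adjusted p = 0.0157) and when libraries were scaled by size only (0.16, adjusted p = 0.0312).

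Psph, the phosphatase that releases serine (chromosome 5, 129765558 to 129787449, minus strand), rose in siBcat. It was at 19.5, 17.7 and 18.2 CPM in siBcat, against 14.2, 13.7 and 15.5 CPM in GSK126 and 14.0, 13.5 and 12.3 CPM in siCTL. The siBcat libraries stood above the rest, and the GSK126 and siCTL libraries overlapped. The change was 0.48 (SE 0.08, adjusted p = 0.000537) in siBcat and 0.13 (SE 0.08, adjusted p = 0.276) in GSK126. Psph shares 10.4% of its exon bases with Cct6a on the opposite strand, and whether strand was used in counting is not given in the sources used here, so its reads cannot be fully told apart from those of Cct6a. Shared exon bases were fewer for Ddit3 (4.0%, with Mars) and Shmt2 (1.0%, with Ndufa4l2), and Phgdh has a processed pseudogene on chromosome 7, which leaves its counts less certain. Pseudogenes were sought only by names built on the symbol of the gene, so other members may have some under other names. The span of Psat1 also overlaps a processed pseudogene, Gm3329, on the opposite strand, with 0 shared exon bases. Which gene Gm3329 derives from was not examined.

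Shmt2, the mitochondrial hydroxymethyltransferase that splits serine into glycine and a folate-bound carbon (chromosome 10, 127517123 to 127522444, minus strand), had the tightest siBcat values of the 10. It stood at 97.3, 97.5 and 96.6 CPM in siBcat, against 77.8, 78.6 and 77.6 CPM in GSK126 and 72.4, 68.3 and 61.4 CPM in siCTL. The groups did not overlap, with siCTL the most spread. The change was 0.53 (SE 0.06, adjusted p = 2.27e-05) in siBcat and 0.21 (SE 0.06, adjusted p = 0.0215) in GSK126. The GSK126 call was lost without siCTL replicate 2 (0.0697), siCTL replicate 3 (0.0773) or GSK126 replicate 1 (0.0508), and when only those 2 groups were fitted (0.0760), these being adjusted p values.

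Mthfd2, the mitochondrial dehydrogenase and cyclohydrolase that oxidises the folate-bound carbon (chromosome 6, 83305691 to 83325908, minus strand), rose in both. Its levels were 32.4, 29.1 and 29.4 CPM in siBcat, 21.8, 19.9 and 23.4 CPM in GSK126, and 16.4, 16.8 and 16.9 CPM in siCTL. The groups did not overlap and siCTL was nearly constant. The change was 0.86 (SE 0.07, adjusted p = 2.29e-06) in siBcat and 0.38 (SE 0.07, adjusted p = 0.00284) in GSK126.

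Atf4 itself (chromosome 15, 80255184 to 80257541, plus strand) differed little. It stood at 149.3, 153.1 and 142.5 CPM in siBcat, against 144.8, 139.1 and 171.2 CPM in GSK126 and 140.5, 131.5 and 135.8 CPM in siCTL. The siBcat libraries lay just above siCTL, and GSK126 replicate 3 was the highest of the 9. The difference was 0.13 in siBcat (SE 0.07, 95% interval -0.03 to 0.28, adjusted p = 0.199) and 0.16 in GSK126 (SE 0.07, 95% interval 0.00 to 0.31, adjusted p = 0.125). The siBcat difference passed the threshold without GSK126 replicate 3 (0.12, adjusted p = 0.00953), and with only the siBcat and siCTL libraries fitted (0.12, adjusted p = 0.0244). Without GSK126 replicate 3 the GSK126 difference was 0.06 (adjusted p = 0.310).

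Ddit3, also called CHOP, a C/EBP-family factor that Atf4 induces under lasting stress (chromosome 10, 127290774 to 127296288, plus strand), likewise did not pass. It was at 21.6, 20.0 and 22.1 CPM in siBcat, against 18.6, 18.0 and 23.7 CPM in GSK126 and 17.5, 19.2 and 19.4 CPM in siCTL. The siBcat libraries were above siCTL, and GSK126 replicate 3 alone of its group was above both. The difference was 0.18 in siBcat (SE 0.10, 95% interval -0.03 to 0.40, adjusted p = 0.181) and 0.10 in GSK126 (SE 0.10, 95% interval -0.11 to 0.32, adjusted p = 0.473). Without GSK126 replicate 3 the siBcat difference passed the threshold (0.18, adjusted p = 0.0265), as it did with only siBcat and siCTL fitted (adjusted p = 0.0466), and the GSK126 difference turned to -0.03 (adjusted p = 0.782).

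Trib3, a pseudokinase that binds Atf4 and Akt and is a target of Atf4 and Ddit3 (chromosome 2, 152337422 to 152344032, minus strand), rose in siBcat. It stood at 5.50, 4.82 and 5.08 CPM in siBcat, against 2.79, 2.30 and 2.91 CPM in GSK126 and 2.58, 2.47 and 2.21 CPM in siCTL. The siBcat libraries stood well apart, while GSK126 and siCTL overlapped. The change was 1.08 (SE 0.13, 2.12-fold, adjusted p = 4.86e-05) in siBcat and 0.15 (SE 0.14, adjusted p = 0.472) in GSK126.

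Chac1, which breaks down glutathione (chromosome 2, 119351229 to 119354381, plus strand), was among the lowest of the 10, with counts of 60 to 244 per library. It was at 4.72, 4.94 and 4.29 CPM in siBcat, against 3.18, 3.72 and 3.80 CPM in GSK126 and 2.44, 1.98 and 1.27 CPM in siCTL. The groups did not overlap, although siCTL varied by 31% of its mean (coefficient of variation). The change was 1.30 (SE 0.19, 2.45-fold, adjusted p = 0.000204) in siBcat and 0.91 (SE 0.19, 1.88-fold, adjusted p = 0.00453) in GSK126. Over the alternatives it ran from 1.07 to 1.51 in siBcat and from 0.68 to 1.13 in GSK126, with every call kept.

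**Figure D2:**
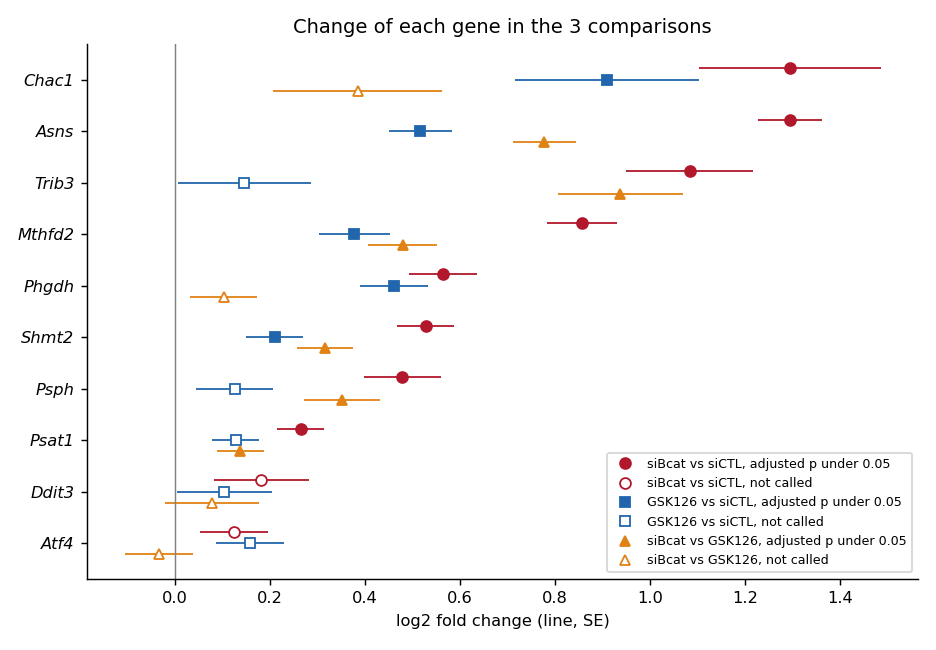
Log2 fold change (horizontal axis) with its SE for each gene in siBcat against siCTL (circles), GSK126 against siCTL (squares) and siBcat against GSK126 (triangles); filled symbols passed an adjusted p of 0.05. The highest siBcat changes are those of Chac1 (1.30) and Asns (1.29), and Trib3 stands at 1.08 in siBcat against siCTL but at 0.15 in GSK126 against siCTL.

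The treatments were also compared with each other. Between siBcat and GSK126, 6 of the 10 genes were higher in siBcat, where 19.3% of all genes tested were called higher and 41.2% in either direction, and none was lower (0 also at an unadjusted p under 0.05, with DESeq2 and with limma-voom). The median log2 fold change was 0.335 over the 10 genes and -0.012 over all genes. In 7 of the 10 every siBcat library was above every GSK126 library, as in 25.3% of all genes tested. Trib3 was higher by 0.94 (SE 0.13, adjusted p = 0.000102) and Asns by 0.78 (SE 0.07, adjusted p = 1.39e-06). Mthfd2 was higher by 0.48 (SE 0.07, adjusted p = 0.000195), Psph by 0.35 (SE 0.08, adjusted p = 0.0034) and Shmt2 by 0.32 (SE 0.06, adjusted p = 0.000933). These 5 calls held in each of the 21 alternatives.

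Psat1 was higher in siBcat than in GSK126 by 0.14 (SE 0.05, adjusted p = 0.0395), a call lost in 11 of the 21 alternatives. It was lost without siCTL replicate 1 or 2 (adjusted p = 0.0543 and 0.0555), GSK126 replicate 1 or 2 (0.0795 and 0.0515), or siBcat replicate 1 or 3 (0.112 and 0.138). It was also lost when libraries were scaled by size only (0.07, adjusted p = 0.301). Chac1 differed by 0.38 (95% interval 0.00 to 0.77, adjusted p = 0.103), and passed without siCTL replicate 3 (adjusted p = 0.0335) and with only the 2 groups fitted (0.0323). Phgdh differed by 0.10 (95% interval -0.05 to 0.26), Ddit3 by 0.08 (-0.14 to 0.29) and Atf4 by -0.03 (-0.19 to 0.12). Without GSK126 replicate 3, Phgdh (0.17, adjusted p = 0.00945) and Ddit3 (0.21, adjusted p = 0.0193) passed, and Atf4 stood at 0.06 (adjusted p = 0.226).

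Levels of different genes were compared per coding length, with the RPKM values that the authors deposited. In siBcat the order of mean RPKM was Atf4 (75.8), Phgdh (47.3), Psat1 (39.6), Shmt2 (37.1), Asns (35.3), Ddit3 (21.4), Mthfd2 (12.9), Psph (10.6), Chac1 (2.61) and Trib3 (2.20), and no neighbours in that order overlapped between libraries. In GSK126 it was Atf4 (81.5), Phgdh (46.3), Psat1 (37.8), Shmt2 (31.3), Asns (21.6), Ddit3 (21.4), Mthfd2 (9.71), Psph (8.71), Chac1 (2.10) and Trib3 (1.20), and the libraries overlapped between Asns and Ddit3 and between Mthfd2 and Psph. In siCTL the order was Atf4 (71.2), Psat1 (33.8), Phgdh (32.8), Shmt2 (26.4), Ddit3 (19.4), Asns (14.7), Psph (7.79), Mthfd2 (7.29), Chac1 (1.09) and Trib3 (1.06). There Psat1 and Phgdh overlapped, as did Psph with Mthfd2 and Chac1 with Trib3. Asns therefore stood above Ddit3 in siBcat and below it in siCTL.

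**Figure D3:**
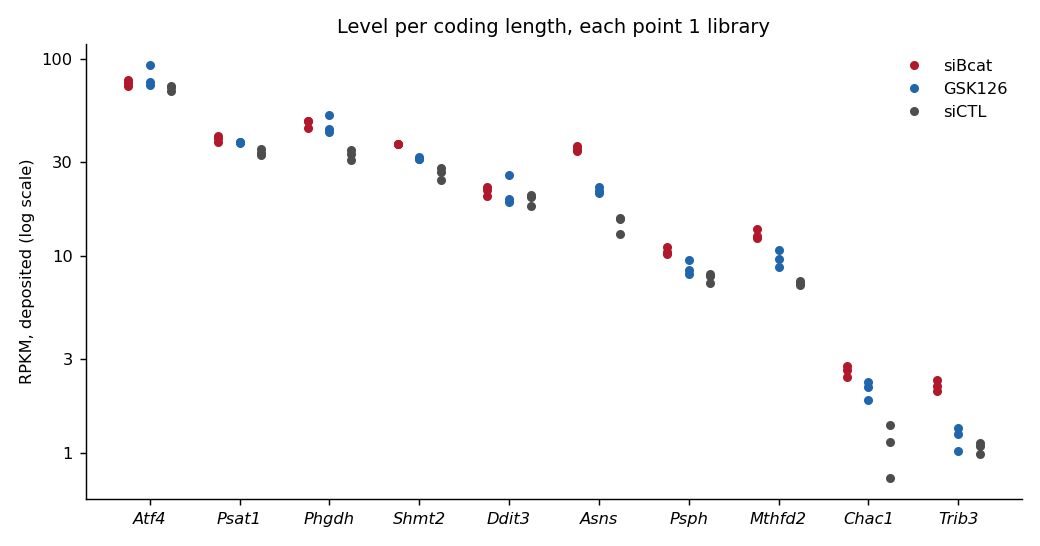
Level per coding length of the 10 genes in RPKM as deposited (vertical log axis), ordered by the siCTL mean; each point is 1 library of siBcat, GSK126 or siCTL. Atf4 is the highest gene in every group and Chac1 and Trib3 the lowest, and Asns runs from 34.2 to 36.4 RPKM in siBcat against 13.0 to 15.7 RPKM in siCTL.

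Ratios of RPKM within a library set the mitochondrial enzymes beside their relatives. The ratio of Mthfd2 to Mthfd2l, a mitochondrial relative, was 5.43, 3.75 and 3.74 in siBcat, 2.35, 2.05 and 2.80 in GSK126, and 1.58, 1.70 and 1.82 in siCTL. The 3 groups did not overlap. The ratio of Mthfd2 to Mthfd1, the cytosolic enzyme, was 0.829, 0.828 and 0.873 in siBcat, 0.516, 0.494 and 0.591 in GSK126, and 0.503, 0.495 and 0.538 in siCTL, with GSK126 and siCTL overlapping. The ratio of Shmt2 to Shmt1, the cytosolic form, was 11.4, 11.1 and 11.5 in siBcat, 7.70, 7.47 and 6.61 in GSK126, and 12.5, 12.4 and 9.06 in siCTL. It was lower in all GSK126 libraries than in any other, and Shmt1 averaged 3.28 RPKM in siBcat, 4.33 RPKM in GSK126 and 2.37 RPKM in siCTL. The ratio of Asns to Atf4 was 0.451, 0.449 and 0.498 in siBcat, 0.278, 0.285 and 0.239 in GSK126, and 0.179, 0.226 and 0.218 in siCTL.

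Across the 9 libraries, which include the 3 groups, the pairs with the highest correlation of log2 CPM were Trib3 with Psph and Asns with Mthfd2 (Pearson r 0.976 each). The lowest r values were those of Atf4 with Psat1 (0.361) and with Trib3 (0.373), while its highest were with Phgdh (0.713) and Ddit3 (0.686). For Ddit3, r ran from 0.425 (Chac1) to 0.686 (Atf4). Of 8792 genes averaging 10 CPM or more, the 8 with the highest r to Asns over these libraries were Hsd17b12 (0.9934), Ccdc25 (0.9906), Sgk1 (0.9876), Btg2 (0.9865), Agtrap (0.985), Jam3 (0.9843), Ccl9 (0.9825) and Cd200 (0.9817). Their log2 fold changes ran from 0.41 (Agtrap) to 1.34 (Cd200) in siBcat and from 0.16 (Agtrap) to 0.52 (Ccl9) in GSK126. The points share libraries, depth and group differences, so these correlations describe the groups.

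The other genes of these pathways were followed in lists, first for siBcat against siCTL, where 17.7% of all genes tested were called higher and 17.5% lower. Of 19 further one-carbon and glycine genes tested, 6 rose and 3 fell: Aldh1l2, a mitochondrial formyl-folate dehydrogenase, rose by 0.86 (SE 0.11, adjusted p = 8.26e-05), Shmt1 by 0.51 (SE 0.11) and Gcsh of the glycine cleavage system by 0.37 (SE 0.09). Mthfd2l and Mat2a were among those that fell. Of 8 transsulfuration and glutathione genes 2 rose, Cth, which makes cysteine from cystathionine, by 1.55 (SE 0.22, adjusted p = 0.000142) and the glutathione synthetase Gss by 0.50 (SE 0.07), and 0 fell by edgeR, DESeq2 or limma-voom or at an unadjusted p under 0.05, so the share called in this list was below the 35.2% of all genes tested. Of 13 enzymes of aspartate, glutamine and proline, 6 rose and 1, the glutamine synthetase Glul, fell, with the aspartate aminotransferases Got1 at 0.61 (SE 0.06, adjusted p = 1.11e-05) and Got2 at 0.29 (SE 0.05). Gfpt1, the entry enzyme of hexosamine synthesis, rose by 0.63 (SE 0.08) and the ornithine aminotransferase Oat by 0.37 (SE 0.05).

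Of 12 cytosolic tRNA synthetases, listed for their link to Atf4 and not all of their kind, 11 rose and 1 fell in siBcat. Gars, Cars and Sars, for glycine, cysteine and serine, rose by 0.42, 0.38 and 0.36 (SE 0.06, 0.05 and 0.06), and Wars, for tryptophan, fell by 0.37 (SE 0.05, adjusted p = 7.02e-05). Of 10 amino acid transporters, also listed for their link to Atf4, 4 rose. They were the cationic carrier Slc7a1 (0.46, SE 0.08), Slc1a5 (0.36, SE 0.05), the glycine carrier Slc6a9 (0.30, SE 0.07) and Slc3a2 (0.27, SE 0.06). None of the 10 fell by edgeR, DESeq2 or limma-voom, with 1 lower at an unadjusted p under 0.05 and 1 fallen without GSK126 replicate 3. Slc1a5 and Slc3a2 are a neutral amino acid carrier and the heavy chain shared by several carriers.

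Of 16 genes for eIF2, its kinases, phosphatase and exchange factor, 7 rose and 1, the haem-regulated kinase Eif2ak1, fell in siBcat. Impact, an inhibitor of the eIF2 kinase Gcn2, rose by 0.84 (SE 0.05, adjusted p = 9.78e-08), Eif2s3x and Eif2s1, which encode eIF2 subunits, by 0.63 (SE 0.05) and 0.40 (SE 0.06), and Eif2b2 by 0.47 (SE 0.06). Of 16 other targets and partners of Atf4, 7 rose and 3 (Jdp2, Nfe2l2 and Herpud1) fell, with 4 called higher when only siBcat and siCTL were fitted. The secreted Stc2 rose by 0.78 (SE 0.09) and the factor Atf5 by 0.74 (SE 0.12), while Jdp2 fell by 0.65 (SE 0.05) and Nfe2l2, the antioxidant regulator, by 0.41 (SE 0.05). The number of eIF2 genes that fell was 0 without siCTL replicate 1, siCTL replicate 3, siBcat replicate 1 or siBcat replicate 3, and 2 without GSK126 replicate 3.

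Of 20 genes of the endoplasmic reticulum chaperone branch 7 rose and 2 (Ern1 and Sel1l) fell in siBcat, and 4 rose without siBcat replicate 2. The chaperone Calr rose by 0.36 (SE 0.05), Manf by 0.42 (SE 0.09) and Dnajb11 by 0.28 (SE 0.07), and the sensor Ern1 fell by 0.76 (SE 0.15, adjusted p = 0.00272). Of 11 mitochondrial protein stress genes 3 rose and 2 fell. The chaperones Hspd1, Hspa9 and Hspe1 rose by 0.50, 0.41 and 0.35 (SE 0.05, 0.05 and 0.09). Opa1, which acts in the fusion of mitochondria, fell by 0.22 (SE 0.05). The other that fell was Dele1, listed under its older symbol. Here 1 fell without siCTL replicate 2, siBcat replicate 1 or siBcat replicate 3. For the transsulfuration list 1 fell without siCTL replicate 1, siCTL replicate 2 or GSK126 replicate 2.

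**Figure D4:**
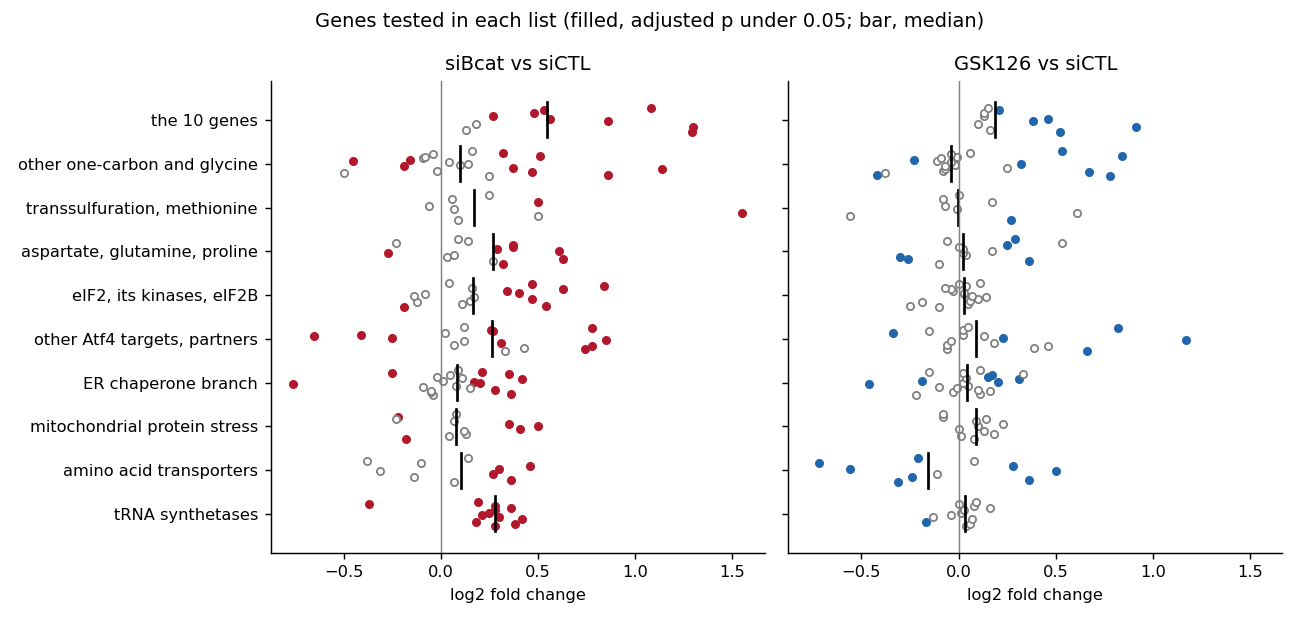
Log2 fold change (horizontal axis) of every gene tested in the 10 genes and the 9 further lists, in siBcat against siCTL and in GSK126 against siCTL; filled points passed an adjusted p of 0.05 and bars are list medians. The listed tRNA synthetases have a median of 0.276 in siBcat and 0.031 in GSK126. The listed amino acid transporters have a median of 0.106 in siBcat and -0.158 in GSK126.

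The same lists were followed in GSK126 against siCTL, where 14.3% of all genes tested were called higher and 10.7% lower. Of the 19 one-carbon and glycine genes 5 rose and 2 fell. Aldh1l1, a cytosolic relative of Aldh1l2, was among those that rose, as were Shmt1 by 0.84 (SE 0.10, adjusted p = 9.42e-05), thymidylate synthase Tyms by 0.53 (SE 0.06) and Mthfd1 by 0.32 (SE 0.06). Aldh1l2 fell by 0.42 (SE 0.11, adjusted p = 0.0179), a call lost without siCTL replicate 1 or siCTL replicate 3 (0.0561 each), and 1 of the list fell without GSK126 replicate 1. Aldh1l2 was higher in siBcat than in GSK126 by 1.28 (SE 0.11, adjusted p = 2.45e-06). Of the 12 tRNA synthetases 0 rose by edgeR, DESeq2 or limma-voom, with 1 higher at an unadjusted p under 0.05, and Eprs fell by 0.17 (SE 0.05, adjusted p = 0.0291). The Eprs call was lost without siCTL replicate 2 (0.0551), siCTL replicate 3 (0.0944) or GSK126 replicate 1 (0.0513). Set directly against GSK126, 10 of the 12 synthetases were higher in siBcat and 1 was lower. Of all genes tested in that comparison, 19.3% were called higher and 21.9% lower.

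Of the 10 transporters 3 rose (Slc1a5, Slc7a1 and Slc43a1) and 5 fell (Slc7a11, Slc6a9, Slc38a2, Slc7a5 and Slc1a4) with GSK126. Slc7a11, the cystine carrier, fell by 0.72 (SE 0.15), Slc6a9 by 0.56 (SE 0.07, adjusted p = 0.00014) and Slc38a2, a carrier of small neutral amino acids, by 0.24 (SE 0.06), while Slc1a5 rose by 0.36 (SE 0.05). Without siCTL replicate 1 or GSK126 replicate 2, 1 of the transporters rose. Slc6a9 was higher in siBcat than in GSK126 by 0.87 (SE 0.07, adjusted p = 1.3e-06). Of the 16 eIF2 genes 0 rose and 0 fell by edgeR, DESeq2 or limma-voom, with 0 higher and 1 lower at an unadjusted p under 0.05. There 1 rose without GSK126 replicate 3 and 1 fell without GSK126 replicate 2. Of the 11 mitochondrial protein stress genes 0 rose and 0 fell by those tools, with 1 higher and 0 lower at an unadjusted p under 0.05, and 1 rose without GSK126 replicate 2.

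Of the 16 other Atf4 targets and partners 4 rose (Stc2, Atf3, Gdf15 and Herpud1) and 1 fell (Nupr1) with GSK126. Stc2 rose by 0.82 (SE 0.09, adjusted p = 2.43e-05), the stress factor Atf3 by 0.66 (SE 0.14) and the secreted Gdf15 by 1.17 (SE 0.22, adjusted p = 0.00486), and Nupr1 fell by 0.34 (SE 0.08). The Gdf15 call was lost without GSK126 replicate 3 (adjusted p = 0.0524), when 2 genes of the list fell. Ahcy alone of the 8 transsulfuration genes rose (0.27, SE 0.05), and 2 rose without GSK126 replicate 2. Of the 13 enzymes of aspartate, glutamine and proline 3 rose and 2 fell, with Oat, which rose, at 0.25 (SE 0.05). In that list 1 rose without siCTL replicate 2, and 1 fell without any 1 of the siCTL or siBcat libraries.

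Of the 20 chaperone branch genes 4 rose (Hspa5, Manf, Pdia4 and Pdia6) and 2 fell (Hyou1 and Ern1) with GSK126, with Hspa5, the main chaperone of the endoplasmic reticulum, at 0.20 (SE 0.05) and Hyou1 at -0.19 (SE 0.05). The share called was close to the 25% of all genes tested. Without siCTL replicate 1 the list had 1 that rose and 1 that fell, as it did with only GSK126 and siCTL fitted. Without siCTL replicate 2, siBcat replicate 1 or siBcat replicate 3 it had 2 that rose and 1 that fell, without siCTL replicate 3 it had 2 and 2, and without siBcat replicate 2 it had 3 and 1.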

How the data were processed

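RNA-seq counts of 9 mouse libraries were used, 3 per group. The submitters' processing notes name bcl2fastq, TopHat2 2.0.6, HTSeq and the mm10 build; for the annotation and strand setting, nothing is given in the sources used here. The authors deposited raw counts of each gene and RPKM, which per the file headers goes with a coding length. All counts were even, and summed counts were 89.8 to 90.7% of the total that RPKM implies. Another 6 columns of per-sample values and the ChIP-seq part were not used here. Tests used R 4.3.3 and edgeR 4.0.16: filterByExpr (minimum count 10, minimum total 15), TMM, and a robust quasi-likelihood fit over all 9 libraries without a replicate block. The filter removed 10118 genes and kept 13240, with a common biological coefficient of variation of 8.12% and 6 residual degrees of freedom. DESeq2 1.42.0 and limma 3.58.1 (voom) were alternatives, beside other scalings, filters, halved counts, a removed length trend and each library left out. The procedure was tested on simulated data that had the same spread for all genes and no length trend, unlike the libraries here. Members and lists were chosen with earlier results of these data known. Named were all members and, of each list, up to 4 genes with the smallest adjusted p per treatment; genes printed without a value complete counts and were named after their values were seen. Some genes of the lists are not reported here by name. Promoters are from RefSeq (GRCm38.p6). Python 3.11.15 with matplotlib 3.10.9 drew the figures.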

Additional observations from a re-analysis of the deposited data

How the results depend on the processing

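In siBcat against siCTL, the number of members called higher was 8 to 10 over 21 alternatives; in GSK126 against siCTL it was 4 to 6, and in siBcat against GSK126 5 to 8, and in none of them was a member called lower. The counts of all genes called stayed within 1.5 times the values given. Without GSK126 replicate 3, the log2 fold change of Ddit3 in GSK126 against siCTL turned to -0.033 (up to 0.171 without other libraries) and that of Atf4 in siBcat against GSK126 to 0.064 (down to -0.087), neither past the threshold; the cause was not tested. Scaling by library size only moved the share of calls that were higher to 41.7% from 50.3% in siBcat against siCTL, to 66.1% from 57.1% in GSK126 against siCTL and to 33.4% from 46.8% in siBcat against GSK126. Deviations of same-numbered libraries from their group means had correlations of -0.031 to 0.069. These weigh all genes alike, low counts included, so they cannot exclude a shared culture or day, which the labels do not give. With a replicate block, 4514, 3135 and 5267 genes were called, against 4666, 3311 and 5450 without it. Of the members, 8, 5 and 5 were called with the block, against 8, 5 and 6 without it. Depth limits Chac1 and Trib3 most, with 60 to 244 and 100 to 238 counts per library; since all counts are even, each fragment may have been counted 2 times, and halved they are 30 to 122 and 50 to 119.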
